A study of Mus musculus with 12 samples.

Results

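The cytosolic ribosomal protein genes were followed through the knockdown of MOF in mouse bone marrow-derived macrophages. They were taken by gene name, as every row of the deposited tables named Rpl or Rps with a number, Rplp0 to Rplp2, or Rpsa, leaving out the S6 kinase genes (Rps6k) and names that end in -ps. The rule found 89 of the 14264 genes in the tables. Of these, 77 encode standard proteins of the ribosome, 46 of the large (60S) and 31 of the small (40S) subunit. Another 11 are copies or paralogs of standard genes, and the last, Rps19bp1, encodes a protein that binds RPS19 and is not part of the ribosome.

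Ribosomes are built in the nucleolus, where ribosomal RNA made by RNA polymerase I is folded, cut and joined with ribosomal proteins, and the subunits finish maturing in the cytoplasm. The mRNAs of ribosomal proteins start with a run of pyrimidines, the 5' terminal oligopyrimidine (TOP) tract, through which the kinase mTORC1 and the RNA-binding protein LARP1 set their translation and stability. These mRNAs are abundant in most cells, and LPS, a component of the outer membrane of bacteria that macrophages sense through the receptor TLR4, is known to act on mTORC1 signalling.

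The controls, labelled wild type, carried a control hairpin (shCTRL), and the knockdown cells a hairpin against MOF (shMOF), the lysine acetyltransferase that Kat8 encodes. Both kinds were studied without stimulus and with LPS (100 ng/ml) for 3 h, which gives 4 groups of 3 libraries, 12 in all, from stranded mRNA preparations. A single hairpin against MOF is named, and the age, sex and strain of the animals are not given in the labels. Each of the 2 deposited tables compares shMOF with shCTRL in 1 LPS state and holds no value per library, so no spread can be shown gene by gene beyond the authors' standard error (SE) of each log2 fold change. Whether the numbered libraries stem from different animals or cultures is not stated, so the p-values measure only the spread between these libraries.

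Kat8, on chromosome 7, had a log2 fold change of -2.25 (SE 0.10, DESeq2 adjusted p = 2.08e-101) unstimulated and -2.31 (SE 0.13, adjusted p = 4.86e-67) after LPS by the authors' deposited tables. All 7 macrophage markers examined were measured, with mean normalized counts of 1233 to 259735. Of other cell types, 4 of 4 stromal markers were measured, with means of 13.7 to 667 and a sum of 1258, and Col1a1 and Col1a2 rose with the knockdown in both states. By the authors' deposited tables all 7 macrophage markers rose unstimulated and 5 after LPS, with Lyz2 at 0.49 and 0.47 on the log2 scale. The granulocyte list had 1 of 5 markers (S100a8), the dendritic cell list 1 of 3 (Zbtb46, mean 43.0) and the progenitor list 2 of 2 (summed mean 55.4), while none of the T cell, B cell or mast cell markers was measured. Both progenitor markers fell unstimulated by the authors' deposited tables, Kit at -1.81 and Cd34 at -0.93, and after LPS Cd34 fell again and Zbtb46 rose by 0.70. The part of these cells in the results was not tested, and fewer cells of a type cannot be told apart from less RNA per cell in such bulk samples. Depth per library is unknown, since the tables give only 1 mean normalized count per gene, identical in both.

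The ribosomal protein genes held 2.96% of the summed mean normalized count of the tables. Levels between genes were compared as mean normalized count per kilobase of a GENCODE M21 transcript. Rplp1, which with Rplp0 and Rplp2 forms the stalk that recruits translation factors, had the highest level at 39950 per kilobase. Rps9 followed at 32371 and Rpl10 at 28370, without any measure of spread over libraries. At the low end stood Rpl24 at 122 per kilobase, far under the other standard genes. Its mean normalized count was 82.8, against at least 3773 for each of the other 76 standard genes. Exons of Rpl24 overlap those of the gene Gm28037 on the same strand in GENCODE M21, so reads of the 2 cannot be assigned with certainty. The copies ran from 25.8 per kilobase for Rpl39l to 4077 for Rps27l. Rps27l lay above the standard genes Rps20 at 2896 and Rps15a at 1515, for which long transcripts (3706 and 5130 bases) were taken. Of the 11 copies, 5 (Rpl37rt, Rpl6l, Rps3a2, Rps3a3 and Rps4l) are annotated as processed pseudogenes, whose reads may be shared with the parent genes. Such shared reads also bear on the standard genes, since 79 further rows of the tables carry ribosomal protein names that end in -ps.

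The start regions of several members are shown because the TOP tract at the transcript start is the feature the family is known by. Each line gives 45 bases before the annotated start and the first 30 bases of the transcript, 5' to 3' on the gene's strand, from RefSeq on GRCm38.p6, with a pyrimidine run of at least 8 bases in capitals. Rpl4 (chr9:64173342-64173416, plus strand), Rpl5 (chr5:107900483-107900557, plus), Rps6 (chr4:86857338-86857412, minus) and Rpl15 (chr14:18270957-18271031, minus) have such a run. In Rps6 and Rpl15 it spans the annotated start. In Rpl4 and Rpl5 it lies wholly before that start, outside the annotated transcript, so the capitals do not mark a tract at the transcript's end there. In Rpl10 (chrX:74270771-74270845, plus), Rpl41 (chr10:128549139-128549213, minus) and Rps28 (chr17:33824533-33824607, minus) the letters hold none within 30 bases of the start given by RefSeq. The paralogs Rpl22l1 (chr3:28805463-28805537, plus) and Rpl36al (chr12:69184038-69184112, minus) are shown for comparison.
Rpl4: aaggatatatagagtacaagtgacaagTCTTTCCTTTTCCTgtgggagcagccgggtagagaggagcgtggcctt
Rpl5: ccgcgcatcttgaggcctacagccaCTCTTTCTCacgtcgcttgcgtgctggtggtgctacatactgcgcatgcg
Rps6: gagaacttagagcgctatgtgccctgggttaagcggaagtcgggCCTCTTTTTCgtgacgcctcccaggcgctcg
Rpl15: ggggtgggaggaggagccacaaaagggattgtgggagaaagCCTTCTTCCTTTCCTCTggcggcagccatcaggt
Rpl10: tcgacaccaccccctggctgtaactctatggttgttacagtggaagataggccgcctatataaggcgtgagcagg
Rpl41: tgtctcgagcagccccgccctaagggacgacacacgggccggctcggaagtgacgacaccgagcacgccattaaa
Rps28: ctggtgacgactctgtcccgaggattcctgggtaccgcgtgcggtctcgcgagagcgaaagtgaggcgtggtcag
Rpl22l1: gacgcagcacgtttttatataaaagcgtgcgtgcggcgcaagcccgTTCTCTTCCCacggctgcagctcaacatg
Rpl36al: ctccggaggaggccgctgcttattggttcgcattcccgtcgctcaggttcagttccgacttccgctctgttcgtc

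RefSeq start regions were found for 57 of the 77 standard genes and for 7 of the 11 copies. A run of at least 8 pyrimidines on the gene's strand, within 30 bases on either side of the start, was present in 32 of the 57 (56.1%), against 25.8% of the 27025 genes of the RefSeq table. Over the whole window, from 250 bases before to 50 after the start, searched on both strands, CGGAAG, the core of ETS family sites, was found in 40 of the 57 (70.2%) against 18.8% of all genes. AAGATGG, the core of YY1 sites, was found in 9 (15.8%) against 7.28%, and TATAAA in 6 (10.5%) against 15.7%. These are matches of letters, with no test and no evidence of binding. The 32 genes with a run and the 25 without differed little in the authors' deposited log2 fold changes, with medians of 0.07 and 0.09 unstimulated and 0.22 and 0.23 at LPS 3 h. A run counted here need not begin at the transcript start, as in Rpl4 and Rpl5, and runs under 8 bases were not counted. This split therefore does not separate mRNAs with a TOP tract from those without.

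The first comparison asks how the ribosomal protein mRNAs stood in unstimulated cells when MOF was depleted. They changed little: 9 of 89 rose, 1 fell and 79 were not called at an adjusted p under 0.05 in the authors' deposited table, against 21.3% of all genes risen and 17.8% fallen. The 9 were Rpl29, Rpl34, Rpl37a, Rpl41 and the stalk gene Rplp1 of the large subunit, and Rps14, Rps21, Rps28 and Rps29 of the small subunit. The share of members called thus lay under that of all genes in both directions. Among the 77 standard genes the log2 fold changes in the authors' deposited table ran from -0.08 to 0.26 with a median of 0.07, a fold of 1.05, and 68 were above 0. The median was the same, 0.07, over the 2799 other genes whose mean normalized count was 2000 or more, of which 39.4% rose and 19.5% fell. Against that median, 36 of the 77 standard genes lay above and the others under it, so the sign of these small values depends on the reference.

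The larger rises were in genes for short proteins. In the authors' deposited table Rps29, a protein of the head of the small subunit, rose by 0.26 (SE 0.06, DESeq2 adjusted p = 0.000134), and Rpl41, the shortest protein of the ribosome, by 0.25 (SE 0.06, adjusted p = 4.04e-05). Rpl37a, a zinc-binding protein of the large subunit, rose by 0.24 (SE 0.08, adjusted p = 0.00682) by the authors' deposited table. The adjusted p of the other 6 lay between 0.0320 (Rps14) and 0.0459 (Rplp1). With fold changes centred on the median of all genes, which subtracts 0.03 in each state, 3 members rose and 1 fell, so the calls beyond the leading 3 rest on a small shift of scale. The gene that fell was Rpl22l1, at -0.31 (SE 0.09, DESeq2 adjusted p = 0.0014) by the authors' deposited table. It encodes a paralog of RPL22, and in mice loss of RPL22 is known to raise it. Rpl22 itself was not called, at 0.12 (SE 0.07, adjusted p = 0.184) by the authors' deposited table.

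**Figure D1:**
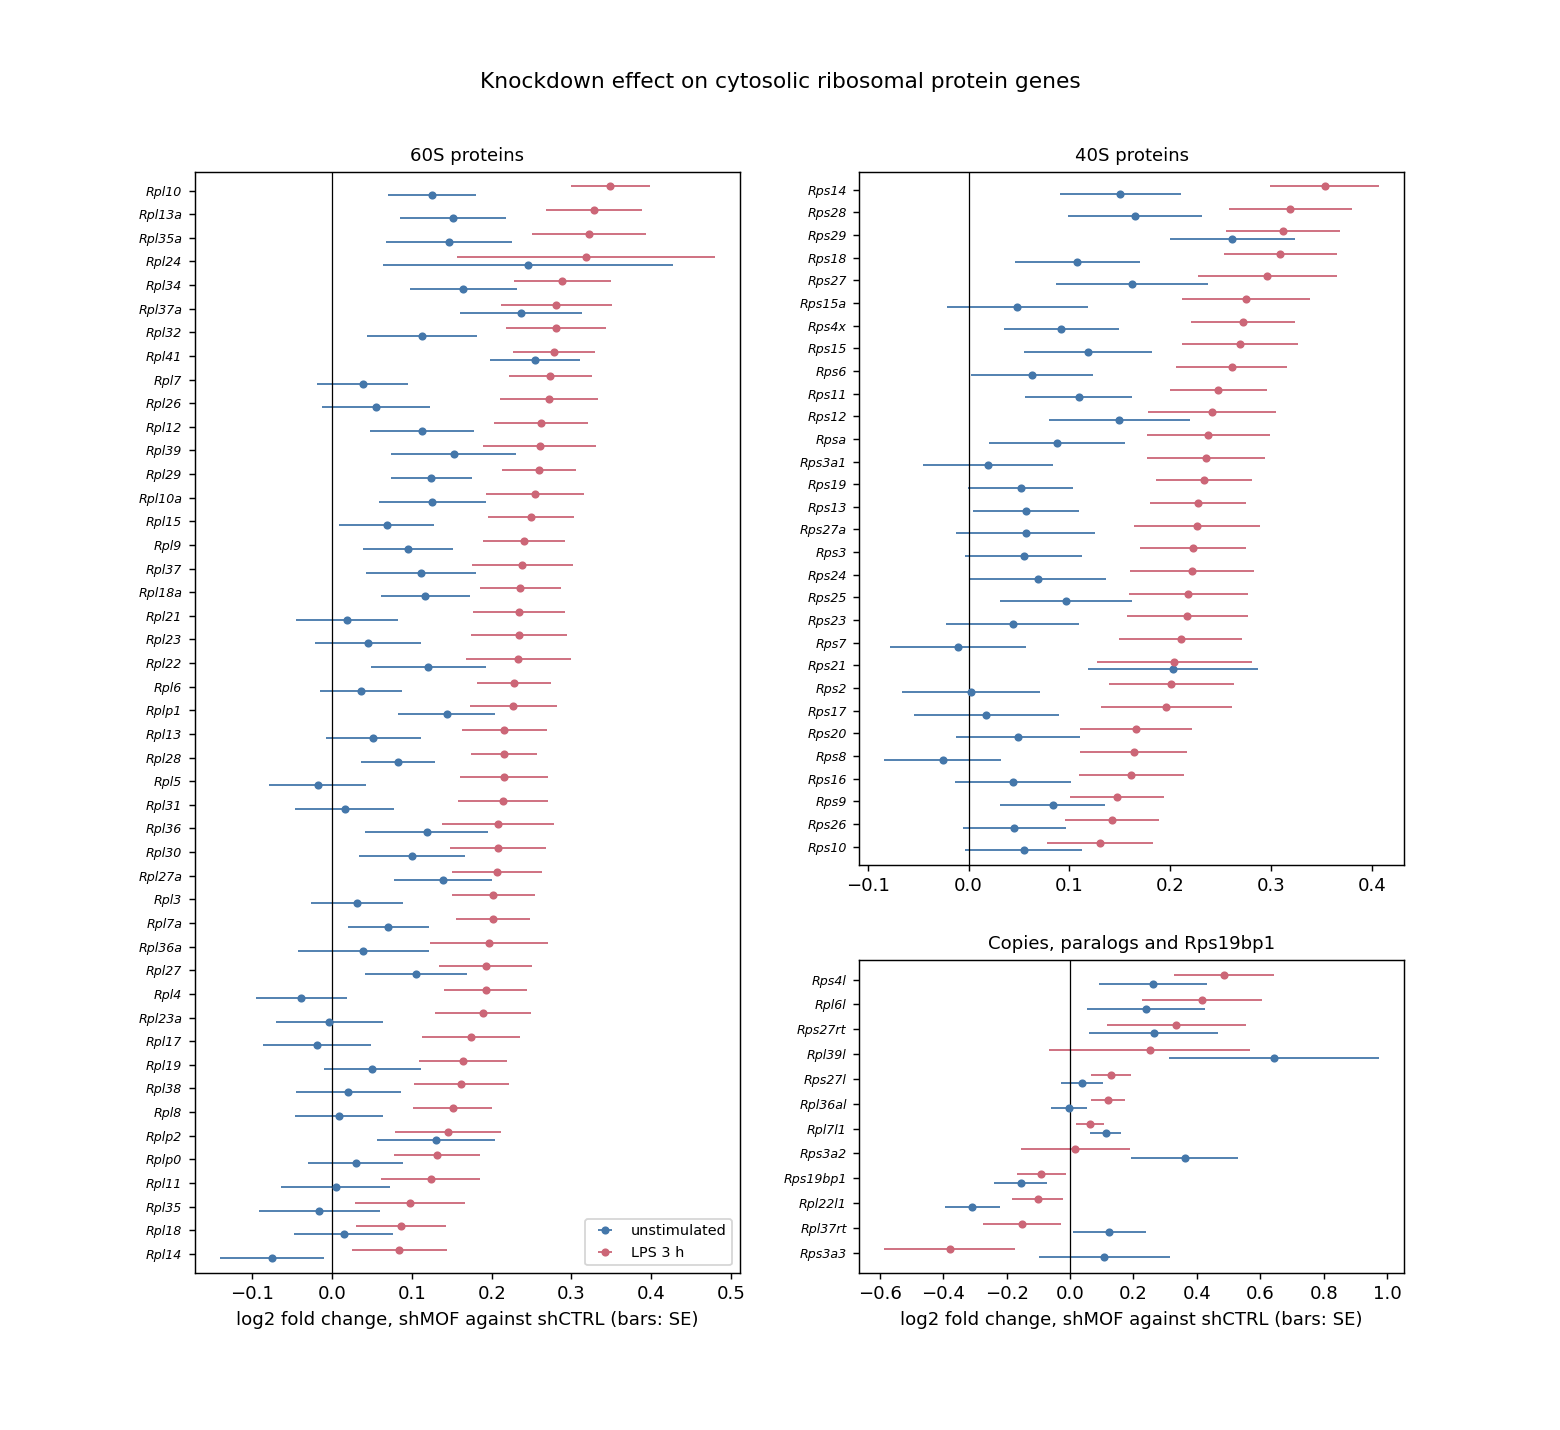
Log2 fold change of shMOF against shCTRL (horizontal axis) for 88 of the 89 genes, in panels for the 60S proteins, the 40S proteins and the copies with Rps19bp1. Points are the authors' deposited values, blue for unstimulated and red for LPS 3 h, with bars for 1 SE; the standard genes drawn lie between -0.08 and 0.26 unstimulated and between 0.08 and 0.35 at LPS 3 h.

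The second comparison puts the same question to cells given LPS for 3 h. Here 71 of 89 rose, none fell and 18 were not called in the authors' deposited table, against 28.1% of all genes risen and 20% fallen. At an unadjusted DESeq2 p under 0.05 the counts were 77 above and 0 below 0. Of the standard genes 70 of 77 rose, and all 77 were above 0. The rises were small and alike: in the authors' deposited table they had a median of 0.23 on the log2 scale, a fold of 1.17, with quartiles at 0.19 and 0.26 and extremes at 0.07 and 0.35. The 9 genes that rose unstimulated all rose here too, which is 12.7% of the 71.

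Other abundant mRNAs were also higher. Among the 2799 other genes whose mean normalized count was 2000 or more, 55.1% rose and 14.4% fell at LPS 3 h by the authors' deposited table, with a median log2 fold change of 0.15 and quartiles at -0.01 and 0.32. Set against that median in place of 0, a scaling chosen after seeing the data, 12 members rose and 4 fell in place of 71 and 0, so the count depends on which genes serve as the reference. The 12 were Rpl7, Rpl10, Rpl13a, Rpl29, Rpl34, Rpl35a, Rpl41, Rps4x, Rps14, Rps18, Rps28 and Rps29, and 67 of the 77 standard genes stayed above that median. The 4 that fell on that scale held no standard gene: they were Rpl22l1, Rpl37rt, Rps3a3 and Rps19bp1.

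The largest rise belonged to Rps4l, a copy of Rps4x annotated as a processed pseudogene, at 0.49 (SE 0.16, DESeq2 adjusted p = 0.00547) by the authors' deposited table, with a mean normalized count of 91.0. Of the standard genes Rps14, on chromosome 18, led with 0.35 (SE 0.05, adjusted p = 5.35e-10) by the authors' deposited table; its loss is known in humans from the 5q- form of anaemia. Rpl10, on chromosome X, whose protein is among the last to join the large subunit, also stood at 0.35 (SE 0.05, adjusted p = 1.93e-11) by the authors' deposited table. Then followed Rpl13a, Rpl35a, Rps28, Rps29 and Rps18, from 0.33 to 0.31. Neighbours in this order differed by less than their SE.

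The 7 standard genes that were not called at LPS 3 h included Rpl11, Rpl14, Rpl18, Rpl24, Rpl35 and Rplp2. In the authors' deposited table Rpl14 stood at 0.08 (SE 0.06, DESeq2 adjusted p = 0.244) and Rpl18 at 0.09 (SE 0.06, adjusted p = 0.204). Rpl24 stood at 0.32 in the authors' deposited table, as high as the leading genes, with an SE of 0.16 that goes with its low count. All 7 were above 0. The unadjusted 95% intervals of Rpl14 and Rpl18 ended at 0.20, under the family's median of 0.23.

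By role, the medians of the 2 subunits lay close together. The authors' deposited tables had 40 of 46 genes of the 60S and 30 of 31 of the 40S subunit risen at LPS 3 h, with medians of 0.22 and 0.23, and unstimulated medians of 0.08 and 0.06. Of the P stalk, Rplp0 at 0.13 and Rplp1 at 0.23 rose at LPS 3 h by the authors' deposited table, while Rplp2 at 0.15 (SE 0.07, DESeq2 adjusted p = 0.0580) was not called. RPL5 and RPL11 carry the 5S ribosomal RNA into the large subunit and, when free, bind the p53 regulator MDM2. At LPS 3 h Rpl5 rose by 0.21 (SE 0.06, adjusted p = 0.000347) and Rpl11 was not called at 0.12 (SE 0.06, adjusted p = 0.0887) by the authors' deposited table. Rps6, the target of the S6 kinases below mTORC1, rose by 0.26 (SE 0.05, adjusted p = 8.49e-06) by the authors' deposited table. Rps19, the gene most often mutated in human Diamond-Blackfan anaemia, rose by 0.23 (SE 0.05, adjusted p = 4.36e-06) there.

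The copies and paralogs were mostly not called. Of the 11, Rps4l alone rose at LPS 3 h and Rpl22l1 alone fell unstimulated in the authors' deposited tables. Among those with a mean normalized count over 600, Rpl7l1 stood at 0.11 unstimulated and 0.06 at LPS 3 h by the authors' deposited tables, Rps27l, known as a p53 target, at 0.04 and 0.13, and Rpl36al at 0.00 and 0.12. Rpl22l1 went from -0.31 to -0.10 (SE 0.08) by the authors' deposited tables. None of these 4 passed the test at LPS 3 h. The low-count copies scattered widely, from Rps3a3 at -0.38 (SE 0.21) to Rps4l at 0.49 at LPS 3 h by the authors' deposited table, and Rpl39l had an SE of 0.33 unstimulated. Rps19bp1 was not called in either state, at -0.16 and -0.09 in the authors' deposited tables.

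The third comparison asks whether the knockdown effect differed between the 2 states. The log2 fold change was higher at LPS 3 h for 84 of the 89 members and for all 77 standard genes, by a median of 0.15 on the log2 scale in the latter. The test of the difference, computed from the authors' deposited tables with adjustment over 12994 genes, was passed by 11 members, all higher at LPS 3 h, against 18.2% of all genes higher and 12.4% lower. At an unadjusted p under 0.05 the counts were 29 higher and 0 lower. For the 2799 other abundant genes the shares were 33.1% and 12%, with a median difference of 0.08. The members' count thus lay under both backgrounds. Set against that median, 67 of the 77 standard genes stayed above it, and 0 members passed the test in either direction.

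The 11 were Rpl4, Rpl5, Rpl6, Rpl7, Rpl10 and Rpl21 of the large subunit and Rps3a1, Rps6, Rps7, Rps14 and Rps19 of the small subunit. Rpl7 had the largest difference: its log2 fold change in the authors' deposited tables was 0.04 unstimulated and 0.27 at LPS 3 h, a difference of 0.24 (SE 0.08, adjusted p = 0.0101). Rpl5 went from -0.02 to 0.21 in the authors' deposited tables, a difference of 0.23 (SE 0.08, adjusted p = 0.0186). Rpl4, a protein that lines the exit tunnel, went from -0.04 to 0.19 in the authors' deposited tables, with a difference of 0.23 (SE 0.08, adjusted p = 0.0126). Rps14, which rose in both states, and Rpl10, not called unstimulated, stood at 0.15 and 0.13 in the authors' deposited table for unstimulated cells and differed by 0.20 and 0.22 from there. At the other end Rps21 stood at 0.20 in both states of the authors' deposited tables, a difference of 0.00 (SE 0.11). Rpl41 at 0.25 and 0.28 and Rps29 at 0.26 and 0.31 in the authors' deposited tables differed by 0.02 and 0.05, each within its SE of 0.08.

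**Figure D2:**
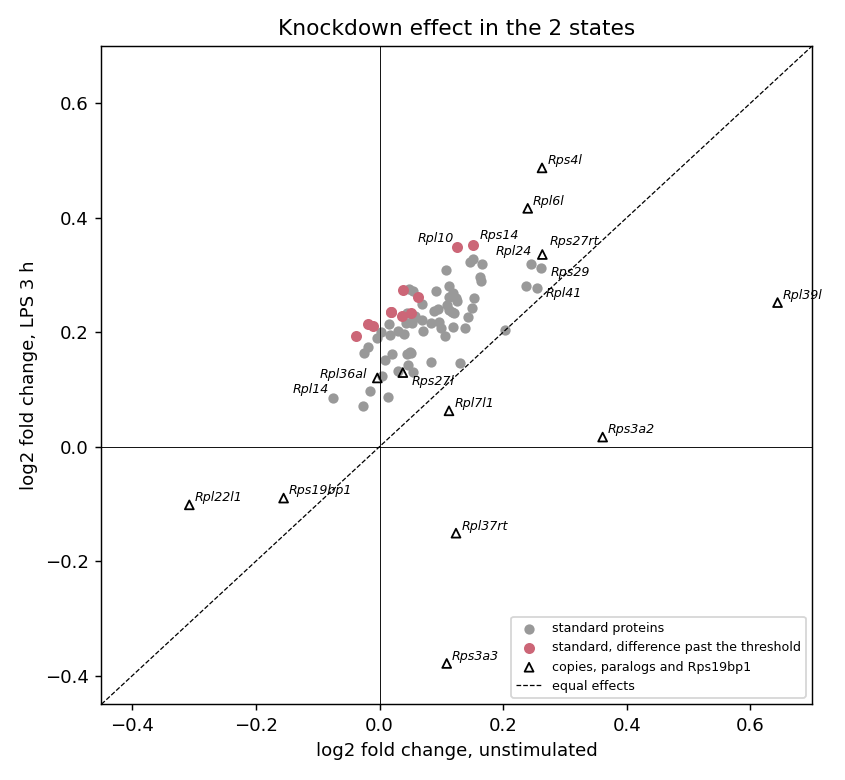
Log2 fold change of shMOF against shCTRL in unstimulated cells (horizontal axis) and at LPS 3 h (vertical axis), 1 point per gene, from the authors' deposited tables. Filled circles are the 77 standard genes, with the 11 past the test of the difference in red, and open triangles are the copies and Rps19bp1; every standard gene lies above the dashed line of equal effects, while 5 of the triangles lie under it.

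The length of the protein went with the unstimulated effect. Over the 77 standard genes, the log2 of the coding length without its stop codon and the log2 fold change in the authors' deposited table had a Pearson r of -0.59 (Spearman rho -0.50) unstimulated, -0.22 (-0.18) at LPS 3 h and 0.51 (0.45) for the difference. These are descriptions across genes of the same libraries, which are not independent replicates, and coding length went with the mean count as well (rho 0.61). Without the 3 shortest genes the Pearson r was -0.47, -0.14 and 0.41. Over 2781 other abundant genes the same measure was -0.02 unstimulated and -0.02 at LPS 3 h.

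Taken by length, the 25 standard genes with at most 400 coding bases had a median log2 fold change of 0.12 unstimulated in the authors' deposited table, and 7 of them rose. The 30 genes of over 400 and up to 600 bases had a median of 0.06 and 2 rose, and the 22 longer genes had a median of 0.04 and none rose. At LPS 3 h the 3 medians in the authors' deposited table were 0.23, 0.23 and 0.22, so the classes that stood apart unstimulated were level. Among other abundant genes the unstimulated medians of the same classes were 0.08, 0.08 and 0.07. Of the 11 genes with a larger effect at LPS 3 h, 7 have over 600 coding bases, 4 have over 400 and up to 600, and none has fewer.

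**Figure D3:**
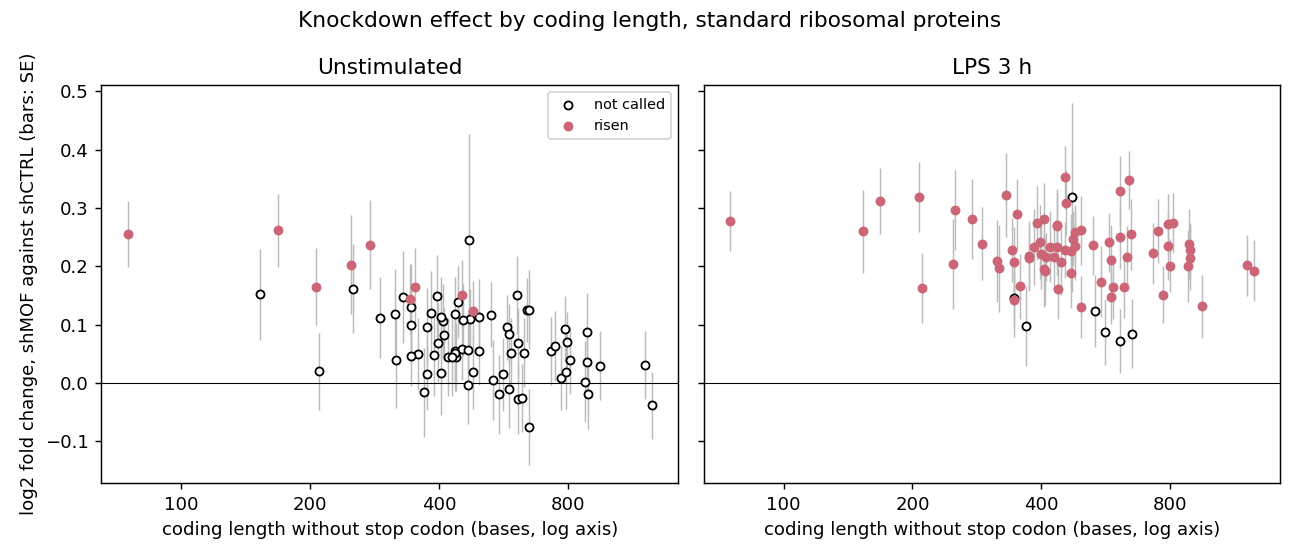
Log2 fold change of shMOF against shCTRL (vertical axis, bars for 1 SE) against coding length in bases (horizontal log axis) for the 77 standard genes, unstimulated on the left and LPS 3 h on the right. Filled red points rose in the authors' deposited tables and open points were not called; unstimulated points slope downwards with length, and those at LPS 3 h lie level between 0.07 and 0.35.

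Position and the RNAs hosted in introns were also examined. The 77 standard genes lie on 19 chromosomes, and 30 of them hold 58 genes of small nucleolar or Cajal body RNAs, which guide the modification of ribosomal and spliceosomal RNA. None of the 9 genes that rose unstimulated is such a host, and the medians of hosts and other genes in the authors' deposited tables were 0.06 and 0.07 unstimulated and 0.22 and 0.23 at LPS 3 h. Exons of 28 of the 89 members overlap those of another gene on the same strand, and 24 of the 28 are such hosts. How the authors' counting treated strand is not stated. The 4 standard genes of chromosome X, Rpl10, Rpl36a, Rpl39 and Rps4x, all rose at LPS 3 h with a median of 0.27 in the authors' deposited table. The 14 on chromosome 7, which also carries Kat8, had a median of 0.21 there, and 11 of them rose.

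The other genes of ribosome making and translation, from lists that hold no member but for one of paralogs, were set beside the family. Their counts stand against the shares over all genes in the authors' deposited tables, 21.3% risen and 17.8% fallen unstimulated and 28.1% and 20% at LPS 3 h. Standard proteins under other names rose as well: in the authors' deposited table for LPS 3 h Fau (RPS30) rose by 0.25 (SE 0.06) and Gnb2l1 (RACK1) by 0.22 (SE 0.05). Of 18 other mRNAs known for a TOP tract, both among them, 14 rose and none fell at LPS 3 h by the authors' deposited table, with a median of 0.22. Eef1a1, the factor that brings transfer RNA to the ribosome, rose by 0.34 (SE 0.04, DESeq2 adjusted p = 1.62e-13) and Eif4b, a partner of the helicase eIF4A, by 0.38 (SE 0.04, adjusted p = 2.66e-21) by the authors' deposited table. Unstimulated, 6 of the 18 rose and 3 fell in the authors' deposited table, with a median of 0.05. The other abundant genes had medians of 0.15 and 0.07.

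Many nucleolar factors that assemble the subunits were lower in unstimulated knockdown cells. Of 85 measured, 49 fell and 2 rose in the authors' deposited table, with a median of -0.20, against 17.8% and 21.3% of all genes. At LPS 3 h 25 fell and 13 rose in the authors' deposited table, with a median of -0.03, against 20% and 28.1% of all genes. By the test of the difference 35 of them were higher and 3 lower at LPS 3 h, against 18.2% and 12.4% of all genes. Nolc1, a nucleolar scaffold protein, fell by 0.70 (SE 0.09) and the helicase Ddx21 fell by 0.64 (SE 0.08) in the authors' deposited table for unstimulated cells. Surf6 fell in both states of the authors' deposited tables, by 0.63 (SE 0.07) and 0.69 (SE 0.07). Sbds, the protein mutated in human Shwachman-Diamond syndrome, which helps to release eIF6 from the large subunit, rose by 0.87 (SE 0.05, DESeq2 adjusted p = 3.33e-54) at LPS 3 h and was not called unstimulated, at 0.14 (SE 0.06), in the authors' deposited tables.

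RNA polymerase I genes had 5 of 16 fallen in each state of the authors' deposited tables, with 1 risen unstimulated and 2 at LPS 3 h, against 17.8% and 20% of all genes fallen and 21.3% and 28.1% risen. Rrn3, its initiation factor, fell by 0.50 (SE 0.06) unstimulated and by 0.24 (SE 0.05) at LPS 3 h by the authors' deposited tables, while Ubtf, which binds the ribosomal RNA genes, rose by 0.10 (SE 0.04) and 0.32 (SE 0.03). The genes of the polymerase and its factors thus moved both ways in the same cells. Polr1a, which encodes a subunit of the polymerase itself, fell in both states of the authors' deposited tables, at -0.34 (SE 0.10) and -0.45 (SE 0.09). Dedicated chaperones of ribosomal proteins had 3 of 6 fallen and none risen in each state of the authors' deposited tables. Heatr3, which in humans acts on the import of RPL5 into the nucleus, fell by 0.43 (SE 0.08) and 0.37 (SE 0.08) in them, and Grwd1 fell unstimulated alone. Initiation factors bring mRNA, initiator transfer RNA and the small subunit together. Of 35, 4 had risen and 12 fallen unstimulated and 13 and 8 at LPS 3 h by the authors' deposited tables, and the share of rises over all genes went up as well, from 21.3% to 28.1%. The elongation list had 2 risen and 1 fallen of 8 unstimulated and 5 and 0 at LPS 3 h in them. It includes Eef1e1 and the kinase gene Eef2k, which do not encode elongation factors. In the authors' deposited tables Eef1e1 was the gene that fell unstimulated, at -0.41, and Eef2k rose in both states, by 0.31 and 0.34.

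Of 15 genes of mTORC1 signalling and the LARP family, 3 rose and 6 fell at LPS 3 h by the authors' deposited table, with a median of -0.08, against 28.1% and 20% of all genes. Unstimulated, 2 rose and 3 fell in the authors' deposited table, with a median of -0.01, against 21.3% and 17.8% of all genes. Larp1, whose protein holds TOP mRNAs, rose at LPS 3 h by 0.53 (SE 0.05, DESeq2 adjusted p = 9.78e-22) and was not called unstimulated at 0.02 (SE 0.06) in the authors' deposited tables. Eif4ebp2, a repressor of initiation that mTORC1 inactivates, fell by 0.59 (SE 0.08, adjusted p = 3.40e-12) at LPS 3 h by the authors' deposited table. The ribosomal proteins of mitochondria, a separate family of nuclear genes, had 8 of 77 risen and 22 fallen at LPS 3 h by the authors' deposited table, with a median of -0.07, against 28.1% and 20% of all genes. Unstimulated, 9 of them rose and 12 fell in the authors' deposited table, with a median of -0.02, against 21.3% and 17.8% of all genes. The list of paralogs, 7 measured and all of them members, had 1 fallen unstimulated and 1 risen at LPS 3 h in the authors' deposited tables. These lists are given by counts and medians, without a test of one list against another.

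**Figure D4:**
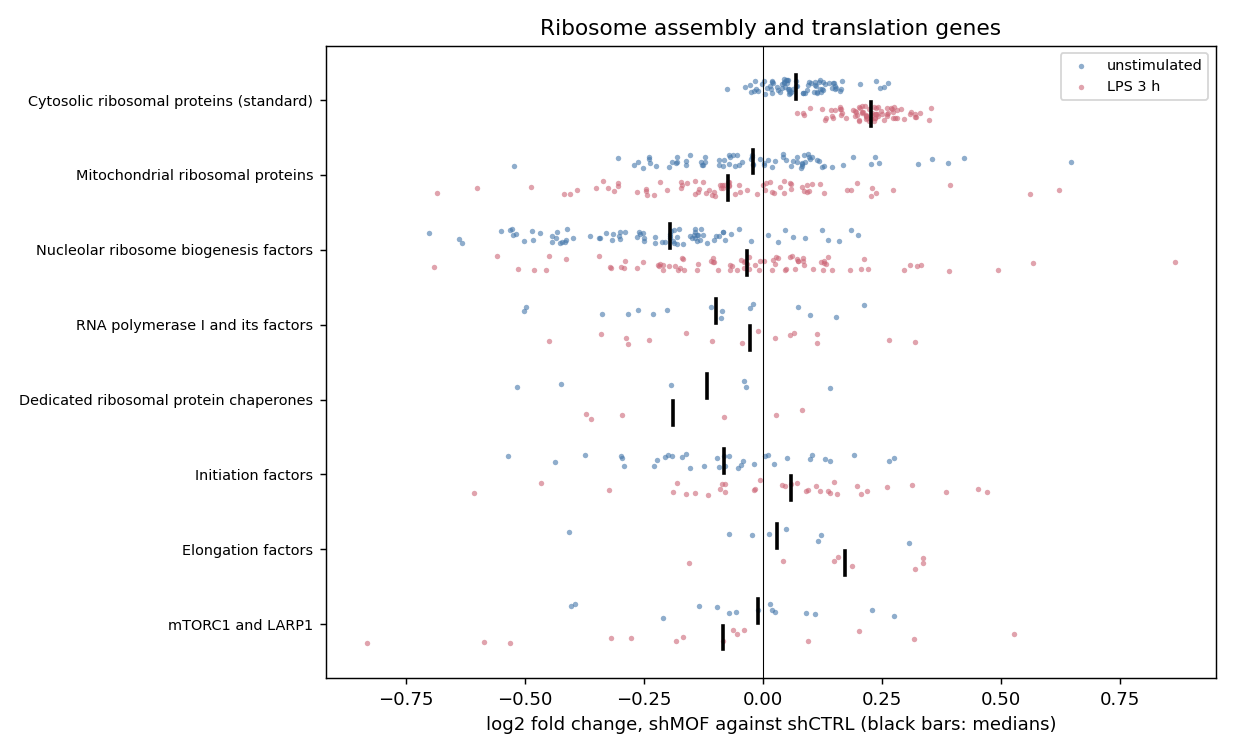
Log2 fold change of shMOF against shCTRL (horizontal axis) for the genes of each list, 1 point per gene, blue for unstimulated and red for LPS 3 h, from the authors' deposited tables, with a black bar at each median. The standard cytosolic ribosomal proteins form a narrow cloud with medians of 0.07 and 0.23, and the nucleolar factors spread around -0.20 and -0.03.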

How the data were processed

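Per the submitters' processing notes the reads were analysed with DESeq2 (no version named) on mm10. The aligner, read counter, annotation release and strand setting were not given in the sources used here. Per the labels' protocols RNA of all samples was extracted at the same time and sequenced as paired-end stranded libraries with reads of 100 bp. The authors deposited, per the file headers, each gene's mean normalized count (a signal), a log2 fold change with its SE, a Wald statistic (a score, within 1.53e-13 of the ratio of fold change and SE), and a p-value with its adjusted p-value. For 277 genes without an adjusted p at LPS 3 h, none a member, no value was set.

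A gene was called at an adjusted p under 0.05, with no minimum fold. To compare states, the unstimulated log2 fold change was subtracted from that at LPS 3 h and divided by the joint SE (root of the sum of squares). Two-sided normal p-values were adjusted by Benjamini-Hochberg over the 12994 genes whose mean normalized count was 10 or more. The 2 comparisons share no library. The code was tested on simulated data. Coordinates and lengths came from GENCODE M21 (GRCm38, the mm10 build), matched by gene ID for 14222 of 14264 genes, and a level per kilobase depends on the transcript taken. Named genes were Kat8, the 8 largest rises and falls per comparison, members not called, members past the test of the difference, copies, and up to 4 genes per list by smallest p; other copies and list genes were named after their values were seen. Some genes that this rule takes are counted but not reported by name here. The members and the 10 lists (275 entries) were chosen with earlier results of these data known. Alternatives were a threshold of 0.01, other sets for the adjustment, centring, nulls of a change of at most 0.1 or 0.25, and other sets of members. Analyses used Python 3.11.15, numpy 2.4.6, pandas 2.3.3, scipy 1.17.1 and statsmodels 0.14.6.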

Additional observations from a re-analysis of the deposited data

Results flagged for a closer look

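The knockdown effect differed between LPS 3 h and unstimulated cells for 11 of 89 ribosomal protein genes, by the test of the difference computed from the authors' deposited tables. That share lay under those of all genes (18.2% higher) and of other abundant genes (33.1% higher). Set against the median of the other abundant genes, 0 standard genes passed. On the log2 scale, LPS 3 h minus unstimulated, Rpl7 differed by 0.24, Rpl5 and Rpl4 by 0.23, Rpl10, Rpl21, Rps7 and Rps3a1 by 0.22, Rps14 and Rps6 by 0.20, Rpl6 by 0.19 and Rps19 by 0.18.

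Of the genes named from the other lists, 22 passed the same test, and more genes of those lists passed it than are named. They were named largely by a small p in 1 or the other state, a choice that favours a difference. Their count therefore says nothing about the lists. Over all genes tested 18.2% were higher and 12.4% lower at LPS 3 h. Among nucleolar factors Sbds differed by 0.73, Rcl1 by 0.64, Wdr43 by 0.63, Ddx21 by 0.53 and Nolc1 by 0.44. Among RNA polymerase I genes Taf1d differed by 0.56, Rrn3 by 0.26 and Ubtf by 0.22, and the chaperone Grwd1 by 0.54. Initiation factors were Eif2s3x at 0.39, Eif1 at 0.33, Eif3b at 0.26 and Eif4b at 0.19. From the elongation list came Eef1e1 at 0.56, Eef1a1 at 0.21 and Eef1b2 at 0.20. Larp1 differed by 0.50, Rheb by 0.41, Larp4 by 0.32 and Eif4ebp2 by -0.60. Of the mitochondrial proteins Mrpl42 differed by 0.37 and Mrpl52 by -0.28.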

How the results depend on the processing

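Of the called genes followed through the alternatives, none changed direction. Other called genes did: Rps9, Rps26, Rplp0 and Rps10, risen at LPS 3 h, lay under the median of other abundant genes when centred on it. Their centred values ran from -0.0016 to -0.018, and none of them was called on that scale. Unstimulated, the 9 risen members became 3 at a threshold of 0.01, 3 with fold changes centred on the median of all genes, 2 when centred on the median of other abundant genes (with 2 fallen in place of 1), 2 against a null that allows a change of up to 0.1 and 0 against 0.25. With adjustment over genes with a mean of at least 50 the 9 risen members became 13. The 1 fallen member became 0 under both nulls and 0 without copies and Rps19bp1. At LPS 3 h the 71 risen became 30 against a null of 0.1, 0 against 0.25, 12 (with 4 fallen in place of 0) when centred on other abundant genes, and 46 without the members whose exons overlap another gene on the same strand, which are fewer genes. The 11 with a larger effect at LPS 3 h became 0 at 0.01, 17 with adjustment over genes with a mean of at least 50, 6 when centred on all genes, 0 when centred on other abundant genes, 0 under both nulls and 6 without overlapping members. The centring on other abundant genes and the overlap alternative were chosen after seeing the data. For these changes other than the fewer members the cause was not tested. Leaving out a library was not run, since the tables hold no values per library. No paired analysis was possible because the deposited comparisons carry no values or numbers per library. Depth is unknown, and the SE of 0.06 typical of the standard genes limits what can be called.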
